A study of Mus musculus with 6 samples.

Results

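Mitosis and kinetochore genes were followed in pancreatic islets that lack Neurod1 in beta cells. The 40 genes, chosen by symbol from a list of cyclins, kinases, spindle, kinetochore and cytokinesis genes of the G2 and M phases, were all found among the 23284 genes of the count files. The knockout group was Neurod1-floxed/floxed; Rip-Cre+, in which a Cre recombinase under the rat insulin promoter acts in beta cells, and the control group was Neurod1-floxed/floxed with no Cre. Both groups were 12 weeks old, and the labels give their strain as C56BL/J. Each group had 3 bulk RNA-seq libraries of isolated islets, which the labels number 4, 5 and 6 for knockout mice and 7, 10 and 16 for control mice. The controls carry the floxed alleles and no transgene, so the deletion and the Cre transgene itself cannot be told apart. Rip-Cre is also known to act in some neurons of the hypothalamus. The labels do not say how many animals went into a library, and p-values measure the spread between these libraries, which may be technical in part.

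When a cell enters mitosis, cyclin B with the kinase Cdk1 sets off chromosome condensation and spindle assembly. Kinetochores then tie each chromosome to spindle microtubules, and a checkpoint holds the anaphase-promoting complex (APC/C) until all are attached. The transcripts of this machinery build up in G2 and M phase under FoxM1 and the MuvB complexes and are low in resting cells. Adult beta cells divide rarely, and an islet preparation also holds endothelial, stromal and immune cells that can divide.

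Total counts were 12206393 to 16473159 per knockout library and 14424767 to 20412435 per control library. Neurod1 was at 28.4, 29.8 and 31.3 CPM (counts per 1e+06 counts, scaled by TMM factors) in the knockout libraries 4, 5 and 6, against 198, 177 and 141 CPM in the control libraries 7, 10 and 16 (log2 fold change -2.53, SE 0.13, adjusted p = 1.74e-05). All 11 islet endocrine markers had counts in every library. Apart from Spc25, a member had between 9 and 709 counts in a knockout library (median 70.0) and between 2 and 221 in a control library (median 35), so these are weakly expressed genes with a wide counting error.

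Most members were higher in the knockout islets. Of the 39 members with enough counts to be tested, 26 rose, Spc25 fell and 12 did not pass the test at an adjusted p under 0.05 (edgeR's quasi-likelihood test, adjusted over all genes tested). Among all 14770 genes tested, 11.8% were called higher and 12.6% lower. The log2 fold change was positive for 38 of the 39 members, with a median of 1.33, against a median of -0.01 for all genes tested. For 28 of the 39, every knockout library was above every control library, which held for 20.0% of all genes tested. The remaining member, Cdc25c, was too low to be tested in this main fit. In bulk islets, more dividing cells and more of these transcripts per cell cannot be told apart.

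The size of the rise differed between the knockout libraries. Without Spc25, the members summed to 144, 323 and 318 CPM in knockout libraries 4, 5 and 6 and to 117, 113 and 97.8 CPM in control libraries 7, 10 and 16. The group values were 262 ± 102 CPM in knockout islets against 109 ± 9.96 CPM in control islets (SD, n = 3 each), a ratio of 2.4. Knockout library 4 was 1.32 times the control mean, library 5 was 2.96 times and library 6 was 2.92 times. Library 4 held the lowest knockout value for all 40 members, which was so for 31.1% of all genes tested. It still lay above every control for 29 of the 40 members, among the controls for 8 and below all of them for 3. The same count over all genes tested was not made. Of the 39 members other than Spc25, 23 were highest in knockout library 5 and 16 in knockout library 6. The highest knockout value of a member was a median of 2.33 times its lowest, against 1.39 times among the controls. For all tested genes above 0 in every library, these medians were 1.20 times among the knockouts and 1.19 times among the controls. Those genes were not matched to the members by level, and low counts widen such ratios.

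The count of rises depended on which libraries were used. Without knockout library 4 it was 35 of 39 members. Leaving out knockout library 5 gave 10 and knockout library 6 gave 9, while control libraries 7, 10 and 16 left out in turn gave 11, 12 and 10. The 10 without control library 16 were of 40 members tested and include Cdc25c. With single libraries left out, the share of all genes called higher was 7.75% to 10.6%, the lowest without control library 10. With limma-voom 12 members rose. A total of 7 rises, those of Ccnb1, Nek2, Cdc20, Ube2c, Cenpe, Cenpf and Kif23, and the fall of Spc25 passed in each of the 12 alternatives tried. The other 19 rises missed the threshold in at least 1 of them, with no change of sign. In the authors' deposited table, 9 of the 40 members were higher at an adjusted p under 0.05 (6.66% of the 19440 genes with a value there) and Spc25 was lower (6.19%). These 9 were Ccnb1, Nek2, Mad2l1, Cdc20, Ube2c, Cenpa, Cenpf, Kif11 and Kif23, and the log2 fold change there was positive for 39 of 40.

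**Figure D1:**
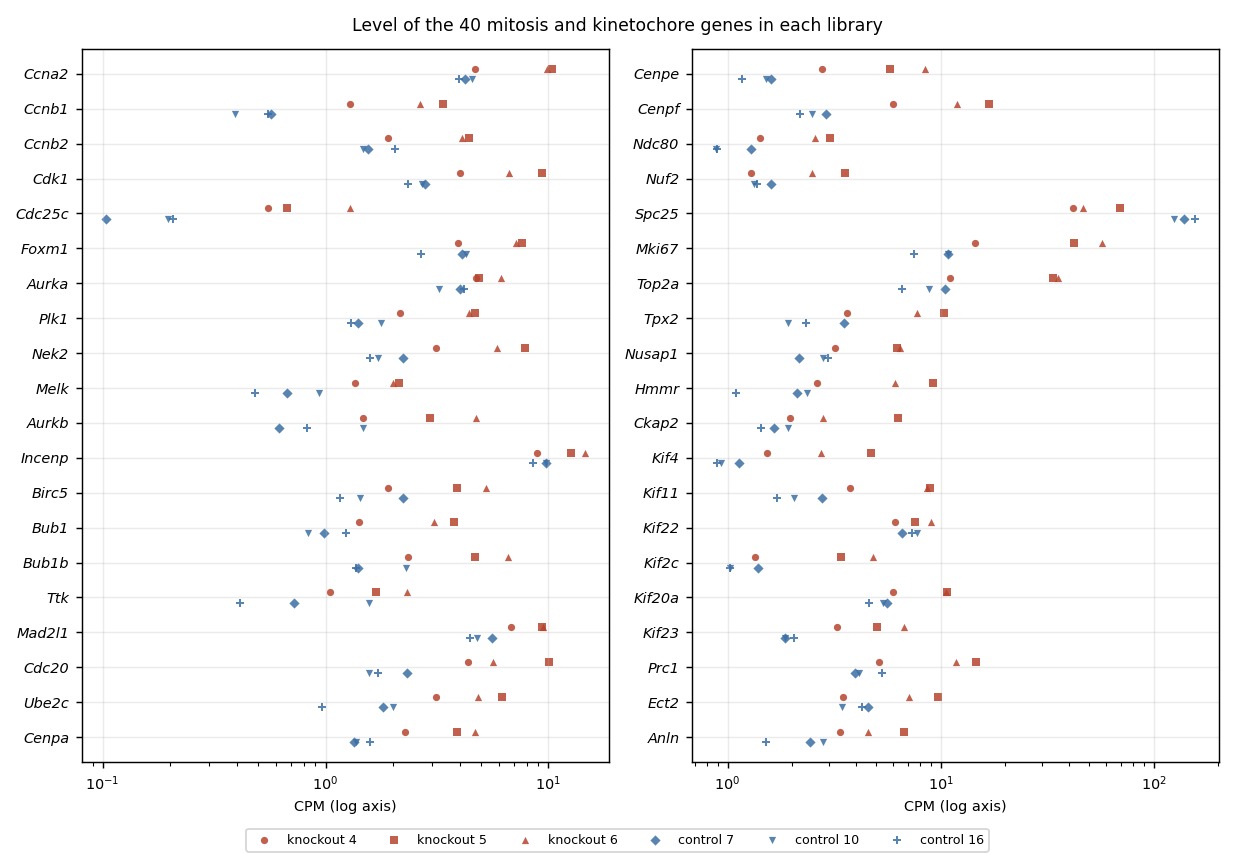
Level of each of the 40 members in the 6 libraries, in CPM on a log axis, with knockout libraries in red and control libraries in blue. Except for Spc25 the red points lie mostly to the right of the blue ones, and the red circle (knockout 4) is the leftmost red point for every member.

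Promoter windows are shown because genes of this phase share a promoter element, the cell cycle genes homology region (CHR, with the letters TTTGAA or TTCGAA), which MuvB complexes bind, often beside CCAAT boxes, which the factor NF-Y binds. RefSeq windows of GRCm38.p6 (250 bases before to 50 after a start) were at hand for 33 of the 40 members by symbol, and the first window was used where a gene had more. On either strand, CHR letters were found in 25 of the 33 windows (75.8%), against 19.4% of 27025 genes. These are all gene symbols with a window of this length, not matched to the members by kind of gene. CCAAT was found in 25 of 33 (75.8%), against 37.9%, and both together in 22 of 33 (66.7%), against 7.70%. The letters TTTCCCGC or TTTGGCGC of an E2F site were in 0 of 33 windows and in 1.63% of all. No CHR letters overlapped a CCAAT box. CHR letters were in 16 of 22 members that rose, in Spc25, which fell, and in 8 of 10 that did not pass. The windows below run from 100 bases before to 50 after the start and are given 5′ to 3′ on the strand of the gene, with CHR letters and CCAAT boxes of either strand in capitals. Cdc20, Cdk1, Cenpf, Plk1 and Kif23 rose and hold both elements, and Spc25 fell and holds both. Ccnb1 had the largest fold change of the tested members and holds CCAAT boxes but neither TTTGAA nor TTCGAA. Other spellings of the CHR were not searched.
Cdc20 (chr4:118437294-118437443, minus strand): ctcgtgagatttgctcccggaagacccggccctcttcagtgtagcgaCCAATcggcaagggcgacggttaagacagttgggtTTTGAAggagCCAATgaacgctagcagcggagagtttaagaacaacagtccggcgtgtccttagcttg
Cdk1 (chr10:69352863-69353012, minus strand): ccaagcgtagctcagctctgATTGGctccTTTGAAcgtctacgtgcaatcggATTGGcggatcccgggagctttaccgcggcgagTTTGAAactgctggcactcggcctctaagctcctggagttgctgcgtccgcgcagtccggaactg
Cenpf (chr1:189688037-189688186, minus strand): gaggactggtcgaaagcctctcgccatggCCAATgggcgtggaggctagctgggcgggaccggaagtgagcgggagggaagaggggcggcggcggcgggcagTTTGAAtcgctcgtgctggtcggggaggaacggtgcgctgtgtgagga
Plk1 (chr7:122159335-122159484, plus strand): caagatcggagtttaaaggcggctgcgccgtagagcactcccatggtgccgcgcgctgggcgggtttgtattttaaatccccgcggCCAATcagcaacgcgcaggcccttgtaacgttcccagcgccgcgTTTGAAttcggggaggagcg
Kif23 (chr9:61946750-61946899, minus strand): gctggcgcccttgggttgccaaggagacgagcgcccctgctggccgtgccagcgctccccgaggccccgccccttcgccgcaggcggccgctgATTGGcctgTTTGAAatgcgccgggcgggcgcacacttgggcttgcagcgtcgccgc
Ccnb1 (chr13:100786437-100786586, minus strand): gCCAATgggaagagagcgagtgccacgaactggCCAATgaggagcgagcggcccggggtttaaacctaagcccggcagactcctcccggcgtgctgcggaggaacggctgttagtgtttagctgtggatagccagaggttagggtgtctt
Spc25 (chr2:69206164-69206313, minus strand): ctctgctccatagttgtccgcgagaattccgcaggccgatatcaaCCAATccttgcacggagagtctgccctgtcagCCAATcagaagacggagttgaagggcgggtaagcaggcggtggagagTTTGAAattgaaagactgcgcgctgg

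**Figure D2:**
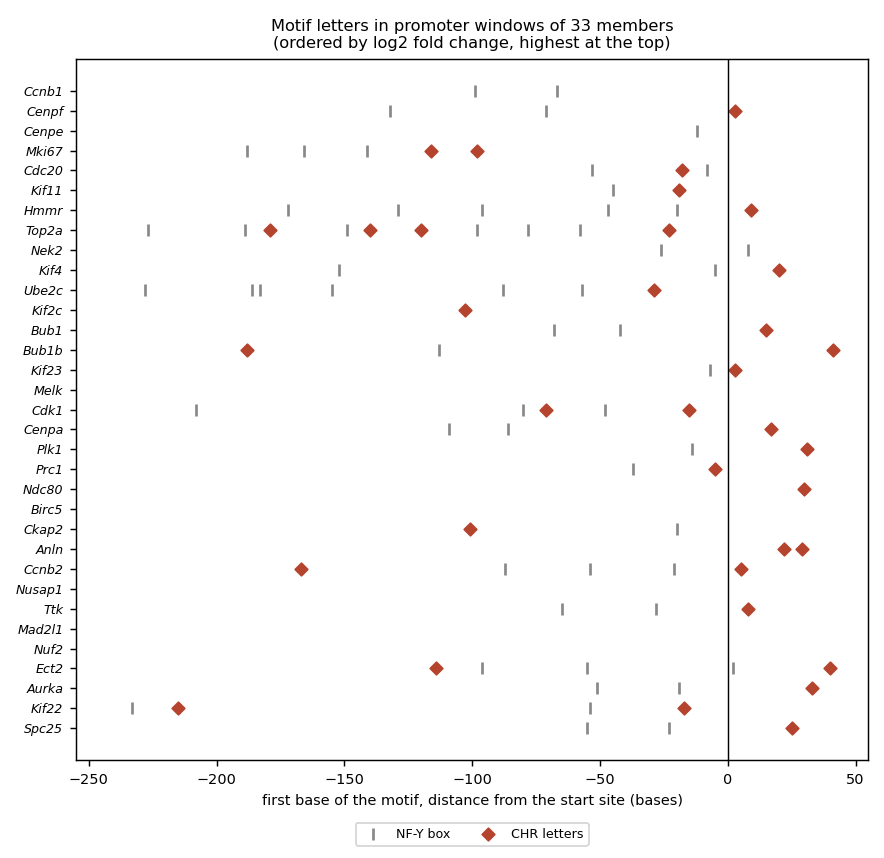
Position of CHR letters (diamonds) and CCAAT boxes (ticks, labelled NF-Y box) on either strand, in bases from the start site, for the 33 members with a promoter window, ordered by log2 fold change with the highest at the top. CHR letters occur in 25 windows, from Cenpf near the top to Spc25 at the bottom.

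Of the 6 genes of mitotic entry, 3 rose and 2 did not pass. Ccnb1, which encodes cyclin B1, had 1.29, 3.35 and 2.65 CPM in the knockout libraries (in the order 4, 5, 6 here and below), against 0.568, 0.392 and 0.549 CPM in the control libraries (in the order 7, 10, 16). Its log2 fold change was 2.26 (SE 0.44, adjusted p = 0.00656), with only 8 to 11 counts in a control library. Cdk1, the catalytic partner of cyclins A and B, had 3.99, 9.31 and 6.67 CPM in knockout islets against 2.79, 2.70 and 2.33 CPM in control islets (1.34, SE 0.30, adjusted p = 0.0134). The groups overlapped for neither gene. Ccna2, cyclin A2 of S and G2 phase, had 4.67, 10.3 and 9.80 CPM in knockout islets against 4.23, 4.56 and 3.98 CPM in control islets (0.95, SE 0.29, adjusted p = 0.0446), so that knockout library 4 was barely above the controls.

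Ccnb2, the second B-type cyclin, was at 1.90, 4.42 and 4.10 CPM in knockout islets against 1.55, 1.47 and 2.06 CPM in control islets (1.04, SE 0.35, adjusted p = 0.0639). Foxm1, the transcription factor of the G2 and M programme, was at 3.93, 7.64 and 7.15 CPM in knockout islets against 4.08, 4.27 and 2.68 CPM in control islets (0.75, SE 0.29, adjusted p = 0.0953). In both, knockout library 4 lay among the controls while libraries 5 and 6 were above them. Cdc25c, the phosphatase that frees Cdk1 for mitosis, had 9, 10 and 16 counts in knockout islets and 2, 4 and 3 counts in control islets. These were too few to be tested in the main fit. It was tested and higher without the count filter (2.29, adjusted p = 0.0192) and without control library 16 (2.39, adjusted p = 0.0481), both in edgeR. With DESeq2 it was also higher (2.33, adjusted p = 0.0335).

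Of the other mitotic kinases, 3 of 4 rose. Nek2, which parts the centrosomes, had 3.13, 7.84 and 5.86 CPM in knockout islets against 2.22, 1.72 and 1.58 CPM in control islets (1.6, SE 0.35, adjusted p = 0.0111). Plk1, which acts on centrosomes, kinetochores and cytokinesis, had 2.15, 4.69 and 4.42 CPM in knockout islets against 1.39, 1.77 and 1.30 CPM in control islets (1.32, SE 0.34, adjusted p = 0.0230). Melk, a kinase of dividing cells, had 1.35, 2.14 and 2.01 CPM in knockout islets against 0.671, 0.932 and 0.480 CPM in control islets (1.36, SE 0.37, adjusted p = 0.0264). Every knockout library of these 3 genes was above every control library. Aurka, the spindle pole kinase, was at 4.73, 4.89 and 6.11 CPM in knockout islets against 4.03, 3.24 and 4.19 CPM in control islets, without overlap, and did not pass (0.46, SE 0.20, adjusted p = 0.133).

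The chromosomal passenger complex corrects wrong attachments and steers cytokinesis, and its kinase rose. Aurkb had 1.47, 2.95 and 4.74 CPM in knockout islets against 0.620, 1.47 and 0.823 CPM in control islets (1.62, SE 0.49, adjusted p = 0.0439), with knockout library 4 level with control library 10 to 3 digits. Incenp, the scaffold of the complex, was at 8.90, 12.7 and 14.6 CPM in knockout islets against 9.71, 9.76 and 8.51 CPM in control islets (0.36, SE 0.18, adjusted p = 0.179). Birc5, which encodes survivin, was at 1.90, 3.89 and 5.22 CPM in knockout islets against 2.22, 1.42 and 1.17 CPM in control islets (1.17, SE 0.41, adjusted p = 0.0684). In Incenp and Birc5, knockout library 4 lay within the control range.

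Of 6 spindle checkpoint and APC/C genes, 5 rose. Cdc20, the activator through which the APC/C starts anaphase, had 4.36, 10.1 and 5.62 CPM in knockout islets against 2.32, 1.57 and 1.72 CPM in control islets (1.83, SE 0.34, adjusted p = 0.00602). Ube2c, the ubiquitin-conjugating enzyme of the APC/C, had 3.13, 6.16 and 4.82 CPM in knockout islets against 1.81, 2.01 and 0.961 CPM in control islets (1.53, SE 0.35, adjusted p = 0.0134). Mad2l1, the checkpoint protein that holds Cdc20, had 6.82, 9.31 and 9.48 CPM in knockout islets against 5.58, 4.76 and 4.46 CPM in control islets (0.79, SE 0.19, adjusted p = 0.0160). All knockout libraries were above all controls in each.

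The checkpoint kinase Bub1 had 1.41, 3.75 and 3.05 CPM in knockout islets against 0.981, 0.834 and 1.24 CPM in control islets (1.43, SE 0.40, adjusted p = 0.0316). Bub1b, which encodes BubR1 of the mitotic checkpoint complex, had 2.33, 4.69 and 6.59 CPM in knockout islets against 1.39, 2.31 and 1.37 CPM in control islets (1.40, SE 0.40, adjusted p = 0.0360). In both, knockout library 4 was just above the highest control. Ttk, the kinase that starts the checkpoint, was at 1.04, 1.68 and 2.33 CPM in knockout islets against 0.723, 1.57 and 0.412 CPM in control islets, with overlap (0.84, SE 0.51, adjusted p = 0.258).

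Of 6 centromere and kinetochore genes, 4 rose and Spc25 fell. Cenpf, a protein of the outer kinetochore, had 5.96, 17.0 and 11.9 CPM in knockout islets against 2.89, 2.50 and 2.20 CPM in control islets (2.18, SE 0.37, adjusted p = 0.00574). Cenpe, the kinesin that moves chromosomes to the spindle equator, had 2.76, 5.76 and 8.44 CPM in knockout islets against 1.6, 1.52 and 1.17 CPM in control islets (1.96, SE 0.40, adjusted p = 0.00957). Cenpa, the histone H3 variant that marks centromeres, had 2.27, 3.89 and 4.66 CPM in knockout islets against 1.34, 1.37 and 1.58 CPM in control islets (1.33, SE 0.32, adjusted p = 0.0165). None of these groups overlapped, and Ccnb1, Cenpf and Cenpe had the largest fold changes among the members that rose.

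The Ndc80 complex, which binds microtubules at the kinetochore, is built of Ndc80, Nuf2, Spc24 and Spc25. Of these Spc25 fell and Ndc80 rose, while the other subunits did not pass. Spc25 had 41.6, 69.5 and 46.7 CPM in knockout islets against 139, 124 and 157 CPM in control islets, so every knockout library lay below every control library. This was 52.6 ± 14.8 CPM in knockout islets against 140 ± 16.4 CPM in control islets (SD, n = 3 each), a log2 fold change of -1.41 (SE 0.20, adjusted p = 0.00444). Ndc80 rose, with 1.41, 3.02 and 2.57 CPM in knockout islets against 1.29, 0.883 and 0.892 CPM in control islets (1.17, SE 0.37, adjusted p = 0.0467). Nuf2 was at 1.29, 3.55 and 2.49 CPM in knockout islets against 1.6, 1.32 and 1.37 CPM in control islets, with overlap (0.76, SE 0.38, adjusted p = 0.179). Spc24, named after its values were seen, did not pass (1.0, SE 0.35, adjusted p = 0.0693).

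Spc25 also stood apart in level. Per kilobase of exon, the level of Spc25 was 33.2 CPM in knockout islets against 88.4 CPM in control islets. Ndc80 was at 1.06 and 0.464 CPM per kilobase in knockout and control islets, Nuf2 at 0.884 and 0.518, and Spc24 at 1.22 and 0.608. The other 39 members ranged from 0.430 to 5.11 CPM per kilobase in knockout islets and from 0.0866 to 3.41 in the control. Spc25 made up 12.8% to 22.5% of the members' counts in knockout libraries and 52.5% to 61.6% in control libraries. With it, the members summed to 314 ± 112 CPM in knockout islets against 249 ± 10.7 CPM in control islets (SD, n = 3 each), a ratio of 1.26, and knockout library 4 was below every control.

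In the RefSeq gene order of GRCm38.p6, the next protein-coding gene after Spc25 is G6pc2, which is known for its glucose-6-phosphatase activity in beta cells. G6pc2 lies on the plus strand and Spc25 on the minus strand, so these genes point away from each other. They share no exon in GENCODE M21. G6pc2 was at 2351, 2158 and 2522 CPM in knockout islets against 4492, 4693 and 5232 CPM in control islets (-1.04, SE 0.10, adjusted p = 2.70e-04). Nostrin, the neighbour on the other side, lies on the plus strand and points towards Spc25. Nostrin did not pass (-0.14, SE 0.19, adjusted p = 0.629). Whether reads of G6pc2 entered the count of Spc25 was not tested.

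**Figure D3:**
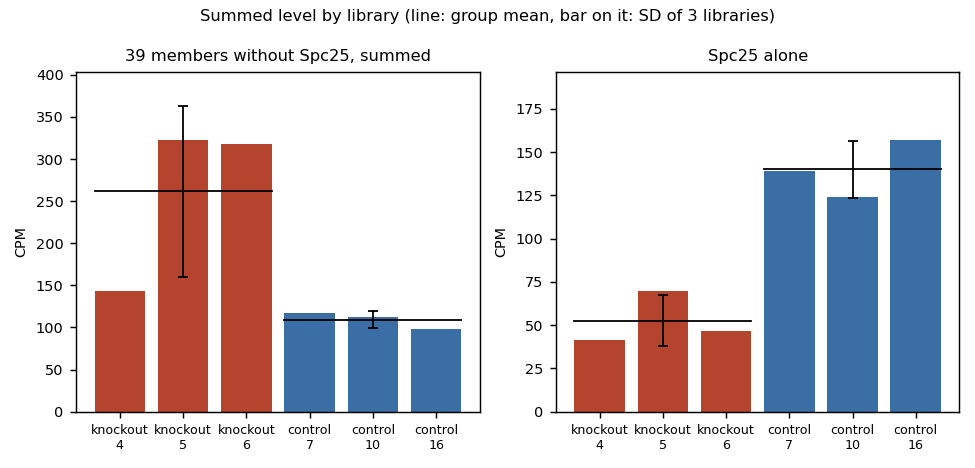
Left, summed CPM of the 39 members other than Spc25 in each library; right, CPM of Spc25 alone, with the group mean as a line and the SD of 3 libraries on it. The 3 knockout bars are above the 3 control bars on the left (144 to 323 against 97.8 to 117 CPM) and below them on the right.

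Mki67 and Top2a, the markers most used for dividing cells, had among the largest folds but did not pass. Mki67, which coats mitotic chromosomes, was at 14.6, 42.1 and 57.0 CPM in knockout islets against 10.8, 10.8 and 7.48 CPM in control islets (1.95, SE 0.55, adjusted p = 0.0618). Top2a, the topoisomerase that untangles sister chromatids, was at 11.1, 33.6 and 35.4 CPM in knockout islets against 10.5, 8.83 and 6.59 CPM in control islets (1.61, SE 0.49, adjusted p = 0.0719). No knockout library overlapped a control library for either gene, but knockout library 4 was close to the controls and libraries 5 and 6 were far above. Both passed without knockout library 4, with DESeq2 and without robust estimation.

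Of 8 spindle proteins and motors, 6 rose. Kif11, the kinesin that pushes spindle poles apart, had 3.75, 8.91 and 8.68 CPM in knockout islets against 2.79, 2.06 and 1.72 CPM in control islets (1.68, SE 0.36, adjusted p = 0.0115). Tpx2, which activates Aurora A on the spindle, had 3.62, 10.4 and 7.71 CPM in knockout islets against 3.51, 1.91 and 2.33 CPM in control islets (1.48, SE 0.41, adjusted p = 0.0339). Hmmr, a spindle pole protein, had 2.64, 9.18 and 6.11 CPM in knockout islets against 2.12, 2.35 and 1.10 CPM in control islets (1.66, SE 0.48, adjusted p = 0.0410). Their lowest knockout value was always in library 4, which for Tpx2 nearly met control library 7.

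Kif4, a chromosome kinesin, had 1.54, 4.69 and 2.73 CPM in knockout islets against 1.14, 0.932 and 0.892 CPM in control islets (1.58, SE 0.42, adjusted p = 0.0258). Kif2c, which takes microtubules apart at centromeres, had 1.35, 3.42 and 4.82 CPM in knockout islets against 1.39, 1.03 and 1.03 CPM in control islets (1.45, SE 0.45, adjusted p = 0.0468). Nusap1, a microtubule bundling protein, had 3.19, 6.23 and 6.43 CPM in knockout islets against 2.17, 2.80 and 2.95 CPM in control islets (1.0, SE 0.30, adjusted p = 0.0398). Kif2c passed although knockout library 4 was below control library 7. Kif22, another chromosome kinesin, was at 6.08, 7.57 and 9.0 CPM in knockout islets against 6.56, 7.75 and 7.34 CPM in control islets, so that the controls lay within the knockout range (0.06, SE 0.18, adjusted p = 0.834). Ckap2, a microtubule-associated protein, was at 1.97, 6.30 and 2.81 CPM in knockout islets against 1.65, 1.91 and 1.44 CPM in control islets, without overlap, and did not pass (1.14, SE 0.43, adjusted p = 0.0873).

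Of 5 central spindle and cytokinesis genes, 4 rose. Prc1, which bundles the microtubules of the central spindle, had 5.16, 14.6 and 11.8 CPM in knockout islets against 3.98, 4.12 and 5.28 CPM in control islets (1.24, SE 0.37, adjusted p = 0.0470), with knockout library 4 just under control library 16. Kif23, the kinesin of the centralspindlin complex, had 3.25, 5.03 and 6.75 CPM in knockout islets against 1.86, 1.86 and 2.06 CPM in control islets (1.37, SE 0.29, adjusted p = 0.0103). Kif20a, which carries the passenger complex to the midzone, had 5.96, 10.7 and 10.6 CPM in knockout islets against 5.58, 5.39 and 4.6 CPM in control islets (0.80, SE 0.24, adjusted p = 0.0383). Both kinesins were higher in every knockout library.

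Anln, anillin of the contractile ring, had 3.38, 6.70 and 4.58 CPM in knockout islets against 2.43, 2.80 and 1.51 CPM in control islets (1.10, SE 0.32, adjusted p = 0.0368). Ect2, the exchange factor that activates RhoA for furrowing, was at 3.50, 9.72 and 7.07 CPM in knockout islets against 4.54, 3.43 and 4.25 CPM in control islets, with overlap (0.73, SE 0.35, adjusted p = 0.165). In GENCODE M21, 7 members share exon bases with a gene of the other strand that is in the files, from 2.84% of the exon bases of Cdc20 (with Elovl1) to 29.3% of those of Kif20a (with Cdc23). The sources used here do not say whether counting used strand, and reads from these overlaps cannot be told apart. Elovl1 was itself higher, at 27.8 CPM in knockout islets against 22.7 CPM in control islets (0.29, adjusted p = 0.0305). Of the other partners, 4 did not pass and 2 were too low to be tested. Cdc23 was at 64.1 CPM in knockout islets against 61.5 CPM in control islets (0.06, adjusted p = 0.505).

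**Figure D4:**
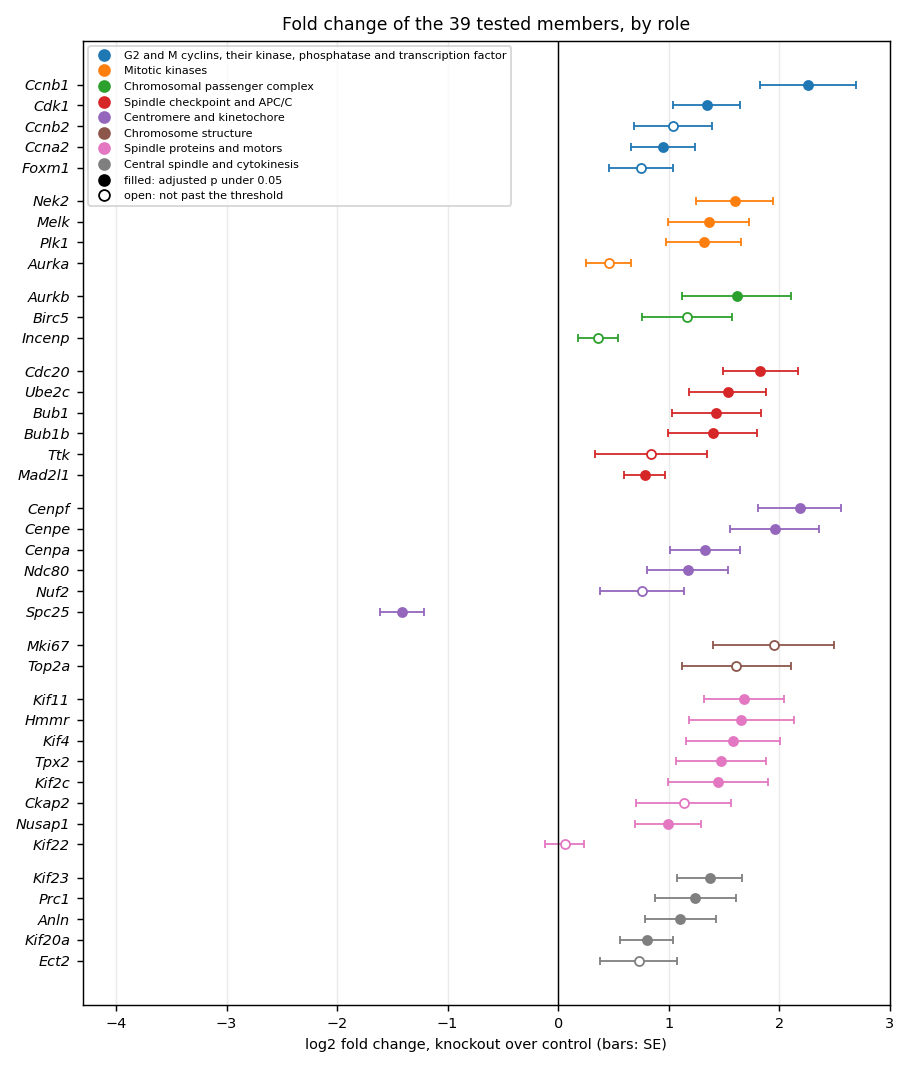
Log2 fold change of knockout over control with its SE for the 39 tested members, grouped by role and ordered by size within a group, filled where the adjusted p was under 0.05. All points but Spc25 (-1.41) are to the right of 0, from Kif22 at 0.06 to Ccnb1 at 2.26.

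Genes of the same processes beyond the 40 members were counted on 6 lists. Of 37 tested genes of the spindle, mitotic entry and cytokinesis beyond the members, 15 rose (median log2 fold change 0.95). They include Mastl, the kinase that keeps mitotic phosphatase in check (1.95, SE 0.33), Cdca3, a gene of mitotic entry (1.34, SE 0.25), the spindle gene Ckap2l (1.54, SE 0.32) and the midbody protein Cep55 (1.52, SE 0.35). Of 31 other kinetochore and centromere genes, 4 rose (median 0.45), among them the kinetochore scaffold Casc5 (1.38, SE 0.35), Cenpi (1.42, SE 0.43), Kntc1 (1.28, SE 0.38) and Mis12 (0.29, SE 0.08). Of 21 condensin, cohesin and separase genes, 3 rose (median 0.39). These were the separase gene Espl1 (1.27, SE 0.32), the condensin II subunit Ncapg2 (0.90, SE 0.23) and the cohesin subunit Stag2 (0.45, SE 0.09). The shares called higher are read against the 11.8% of all genes, and no difference between lists was tested. For the other kinetochore and the condensin, cohesin and separase lists, the share was near that of all genes.

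Subunits of the APC/C, which cells also keep outside mitosis, and its regulators had a median of 0.04. Of these 15 genes, 2 rose, Anapc13 (0.41, SE 0.08) and Cdc27 (0.31, SE 0.09), a share near the 11.8% of all genes. Of 19 MuvB, Myb, E2F and Rb family regulators, 4 rose (median 0.17): E2f2 (1.15, SE 0.17), Rbl2 (0.41, SE 0.08), Rbl1 (0.59, SE 0.14) and Tfdp1 (0.27, SE 0.08). E2f2, an activator of S phase genes, had 11.2, 15.9 and 14.2 CPM in knockout islets against 7.08, 5.98 and 5.42 CPM in control islets, without overlap. Of 34 DNA replication genes, 11 rose (median 0.68). Examples were Dtl (1.84, SE 0.33), the helicase subunits Mcm5 (1.19, SE 0.25) and Mcm2 (0.73, SE 0.17), and the ribonucleotide reductase subunit Rrm2 (0.89, SE 0.20). Most of these counts also hung on single libraries. Without knockout library 4, 24 spindle and cytokinesis, 19 replication, 7 kinetochore and 9 condensin, cohesin and separase genes rose. With knockout libraries 5 and 6 and control libraries 7, 10 and 16 left out in turn, 6, 5, 6, 9 and 5 spindle and cytokinesis genes rose, and 5, 5, 10, 3 and 5 replication genes did. For kinetochore genes these counts were 1, 1, 2, 0 and 0, and for condensin, cohesin and separase genes 1, 1, 2, 1 and 1. For the APC/C the count was 1 without knockout library 5 or any of the controls. For the MuvB, Myb, E2F and Rb family regulators, it was 5 without knockout library 4 and 3 with any other library left out.

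**Figure D5:**
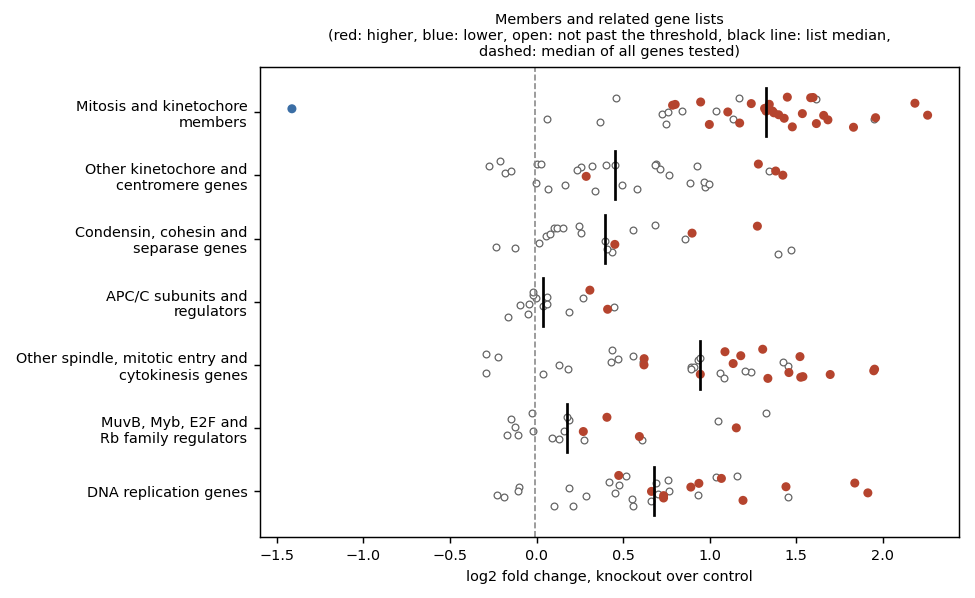
Log2 fold change of knockout over control for each tested gene of the members and of 6 related lists, filled where the adjusted p was under 0.05 (red higher, blue lower), with list medians as black lines and the median of all genes tested as a dashed line. The members' median (1.33) lies farthest to the right and that of APC/C subunits and regulators (0.04) next to the dashed line.

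Marker lists of other cell types that an islet preparation can hold were summed by library. Markers called are read against the 11.8% of all genes tested that were called higher and the 12.6% called lower. On lists this short, 1 gene changes the share widely. The 27 leukocyte markers summed to 1101, 590 and 1497 CPM in knockout libraries 4, 5 and 6 and to 750, 946 and 528 CPM in control libraries 7, 10 and 16. Of the 25 tested by edgeR and by limma-voom and the 27 tested by DESeq2, 0 were called (1 had an unadjusted p under 0.05 in edgeR, lower). Without knockout library 4, 2 leukocyte markers were lower, and without control library 10, 1 was higher. The 12 endothelial markers summed to 715 to 844 CPM in knockout islets against 1119 to 1129 CPM in control islets, and 10 fell, against 12.6% of all genes tested. The 12 stellate and fibroblast markers summed to 744 to 983 CPM in knockout islets against 1067 to 1409 CPM in control islets, and 4 were called lower. That count became 0 on leaving out knockout library 6 and also on leaving out control library 10, and 1 and 6 when control libraries 16 and 7 were dropped in turn. The 18 acinar markers summed to 4361 to 12608 CPM in knockout islets against 12003 to 43711 CPM in control islets, and 2 were called lower, a share near that of all genes. The acinar count was unstable: 14 were lower with DESeq2, 13 without robust estimation, 7 with limma-voom and 13 without control library 16, while dropping knockout libraries 4 and 6 or control libraries 7 and 10 singly left 1 each. The 10 duct markers summed to 586 to 611 CPM in knockout islets against 531 to 625 CPM in control islets, with 2 higher and 4 lower (1 higher without knockout library 4 or 5, 1 higher and 2 lower without control library 10). The 10 Schwann cell and neuron markers summed to 78.8 to 132 CPM in knockout islets against 122 to 147 CPM in control islets, with 2 higher and 3 lower. Dropping knockout library 4 or 5, or else control library 7 or 16, left 1 of them higher, and dropping control library 10 left 0. The 11 islet endocrine markers summed to 174148 to 201178 CPM in knockout islets against 225279 to 260489 CPM in control islets, with 4 higher and 1 lower (2 higher without knockout library 5 or 6, 1 without control library 10 or 16). The share lower was near that of all genes. Of the 6 red blood cell markers, the haemoglobin genes Hba-a1, Hba-a2, Hbb-b1 and Hbb-b2 were at 0 in every library. On the other lists, every marker found in the files had counts in at least 1 library, and S100a8, S100a9 and Prss1 were at 0 in some. Counts of Rn45s, the precursor of ribosomal RNA, were 2.56%, 0.325% and 3.58% of the total for knockout libraries 4, 5 and 6, against 0.396%, 1.69% and 0.637% for control libraries 7, 10 and 16. Which cells carried the mitotic transcripts, and the part of these cell types in the result, was not tested.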

How the data were processed

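Per the labels' protocols, islets were digested free with collagenase, purified on a gradient and picked by pipette, and TruSeq cDNA libraries were read as single-end reads. The authors deposited raw counts per gene symbol for each library. They also deposited a comparison table that holds, for each group, a mean of scaled counts (signal), and then the ratio of both means, the log2 of this ratio, and p-values. The submitters' processing notes name bcl2fastq 1.8.4, TopHat2 2.1.0, Cufflinks 2.0.2, DESeq and build mm9 without their roles. The read counter, annotation and strand setting: not given in the sources used here.

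Counts were analysed with edgeR 4.0.16 in R 4.3.3: filterByExpr (minimum count 10, minimum total 15), which kept 14770 of 23284 genes, TMM scaling, robust quasi-likelihood F tests and Benjamini-Hochberg adjustment over all genes tested, at a threshold of 0.05. Standard errors come from the same fit. Groups share no replicate number. Libraries of the same group differed beyond counting error, with chi-square values of 15.9 to 41.5 per degree of freedom. Levels per kilobase use the summed exon length of GENCODE M21. The fit was tested on simulated data. Alternatives were RLE and upper-quartile factors, no count filter, DESeq2 1.42.0, limma-voom (limma 3.58.1), no robust estimation, and each library left out in turn. The members and lists were chosen with earlier results of these data known. Genes with values in every library were the members past the threshold, the most counted members of each role and 5 fixed markers, and other members that did not pass; related lists name up to 4 genes with the smallest p. The sum without Spc25 and the values of Spc24, G6pc2, Nostrin, Elovl1 and Cdc23 were chosen after seeing the data. Neurod1, as the targeted gene, was reported outside the rule for named genes.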

Additional observations from a re-analysis of the deposited data

How the results depend on the processing

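The members that rose numbered 26, and 24 to 29 with RLE or upper-quartile factors, without the count filter, without robust estimation or with DESeq2, but 12 with limma-voom, where 11.3% of all genes were called higher. Leaving out each library in turn gave 9 to 35 members higher (7.75% to 10.6% of all genes higher) and 1 lower. Their median log2 fold change ranged from 1.11 to 1.59. Over all genes, leaving out a library gave 1153 to 1590 higher and 1225 to 1433 lower. In the related lists, genes higher ranged from 0 to 7 for other kinetochore, 1 to 9 for condensin, cohesin and separase, 1 to 2 for APC/C, 5 to 24 for other spindle and 3 to 19 for replication genes, and genes lower from 0 to 1 for condensin, cohesin and separase genes. DESeq2 called 6 condensin, cohesin and separase genes higher, and upper-quartile factors called 1 other kinetochore gene lower. The MuvB, Myb, E2F and Rb family list had 3 to 5 genes higher over the alternatives. The log2 fold change of Kif22, which did not pass, ranged from -0.066 without knockout library 6 to 0.214 without knockout library 4. The summed level of all 40 members had a log2 ratio of 0.33 (0.14 to 0.62 without single libraries), and without Spc25 of 1.26 (1.08 to 1.57). The causes were not tested. The members other than Spc25 had a median of 35 counts in a control library. Among cell type lists, acinar markers were called lower 1 to 14 times and stellate and fibroblast markers 0 to 6 times over the alternatives. No paired analysis was possible because the groups share no replicate number.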
